A study of Homo sapiens with 12 samples.

Results

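The 8 human E2F transcription factors and the pocket proteins RB1 and RBL1 were followed in HK2 cells in which the tumor suppressor FLCN was knocked down for a short or a long time in culture. These 10 genes were taken by name from the count table of 58288 gene IDs, whose IDs were matched to GENCODE symbols without the version. All 10 had enough counts to be tested, among 13959 tested genes. HK-2 is a human proximal tubule line that was immortalised with papillomavirus E6 and E7 genes, and E7 binds the pocket proteins, which limits the line as a model of normal E2F control.

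Polyadenylated RNA was sequenced from 4 groups of 3 libraries. Short-term nontarget cells carried a control shRNA and were harvested below 30 passages. Short-term FLCN knockdown cells carried an FLCN shRNA and were also harvested below 30 passages. The long-term groups carried the same kinds of shRNA, nontarget or FLCN, and were grown for 120 passages or more by the labels, while the study's methods give a lower limit, counted from clonal selection. All groups were stable shRNA lines selected as clones, and which clone gave which library is not given in the sources used here. A difference between clones therefore cannot be told apart from an effect of the knockdown, and knockdown effects below are differences between these groups. The replicates are named biological, with nothing to say how far the cultures were separate, so p-values measure the spread between these libraries, which may be technical. Totals were 5825779 to 8991051 counts per library.

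FLCN was at 12.7, 16.7 and 16.5 CPM (counts relative to each library total, scaled by TMM) in short-term nontarget cells and at 5.95, 6.58 and 5.66 CPM after short-term knockdown. It was at 9.92, 11.9 and 12.2 CPM in long-term nontarget cells and at 6.70, 6.31 and 7.97 CPM after long-term knockdown. FLCN thus fell by 1.29 on the log2 scale at short term (edgeR adjusted p = 1.12e-04) and by 0.68 at long term (0.00611). Of the 5 epithelial markers, the keratin genes KRT8 (1457 to 2587 CPM) and KRT18 (572 to 921 CPM) were abundant in every library and EPCAM was at 18.9 to 60.5 CPM. The keratin gene KRT19 was at 28.7 to 39.2 CPM in the short-term and at 3.23 to 6.66 CPM in the long-term libraries, and CDH1, the gene of E-cadherin, was at 0 to 0.906 CPM throughout. The kidney epithelial transcription factor gene PAX8 was at 148 to 269 CPM. The proximal tubule receptor gene LRP2, in contrast, was at 0 in every library. Of the 8 proximal tubule markers, 3 averaged at least 1 CPM in each group. Of 3 tested, 2 were higher after short-term knockdown at edgeR adjusted p below 0.05 (5.62% of all genes). After long-term knockdown 1 was higher and 1 lower (13.7% and 15.8%). The 9 markers of leukocytes, endothelium and fibroblasts summed to 14.1 to 41.6 CPM per library, most of it COL1A1 (13.4 to 37.2 CPM). Of these markers PDGFRB was lower after long-term knockdown, at 0.347 to 1.19 CPM against 5.27 to 9.32 CPM in long-term nontarget cells (log2 fold change −3.10, edgeR adjusted p = 1e-05), and its part in the members' values was not tested.

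One library property touches several members. The replicate 3 libraries of short-term knockdown, long-term nontarget and long-term knockdown cells were shifted toward GC-rich genes: the 3485 tested genes with the highest GC content lay 0.34, 0.35 and 0.42 log2 units above the 3485 with the lowest, each relative to its group mean. In the other 9 libraries this shift was between −0.35 and 0.07. An edgeR fit with an offset for gene GC content, and one without the 4 libraries numbered 3, were added after seeing the data. With the GC offset, the share of called genes that were higher went from 46.3% to 56.3% for long-term knockdown against long-term nontarget cells, from 43.0% to 59.1% for long-term against short-term knockdown, and from 37.1% to 53.5% for the interaction. The median log2 fold change over all genes went from 0.001 to 0.0588, from 0.0119 to 0.0899 and from 0.0025 to 0.0696 in the same order. Positive changes in fits with this offset are to be read beside that shift.

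E2F factors bind a short GC-rich element, mostly together with a DP partner, in promoters of genes for DNA replication and cell cycle entry. E2F1, E2F2 and E2F3 are classed as activators. E2F4 and E2F5 act mainly as repressors through pocket proteins, and E2F6 represses with a Polycomb complex without them. E2F7 and E2F8 are atypical repressors that bind DNA without a DP partner. RB1 holds the activators in check until cyclin-dependent kinases phosphorylate it, while RBL1 (p107) pairs mainly with E2F4 and E2F5. In kidney epithelium, as in other tissues, this system sets the passage from G1 into S phase.

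The family also has binding elements in its own promoters, so the 80 bases before the transcription start are shown for members that carry such an element and for E2F4, which carries none of the form searched. The sequences are RefSeq's (GRCh38.p14), on the gene's own strand from 5′ to 3′, with capitals marking the E2F element, searched on both strands as TTTNNCGN with each N a C or a G. Overlapping matches run together as 1 stretch of capitals, as in E2F1.
E2F1 promoter, chr20:33686386-33686465, minus strand: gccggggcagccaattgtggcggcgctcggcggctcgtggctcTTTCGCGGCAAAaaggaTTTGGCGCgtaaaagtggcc
E2F2 promoter, chr1:23531234-23531313, minus strand: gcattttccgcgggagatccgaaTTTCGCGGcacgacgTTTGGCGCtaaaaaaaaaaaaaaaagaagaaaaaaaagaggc
E2F3 promoter, chr6:20401799-20401878, plus strand: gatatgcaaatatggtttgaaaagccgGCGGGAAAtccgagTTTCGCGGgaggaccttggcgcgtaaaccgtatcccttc
RBL1 promoter, chr20:37095998-37096077, minus strand: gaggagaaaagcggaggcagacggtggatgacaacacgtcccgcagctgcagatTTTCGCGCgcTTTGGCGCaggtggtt
E2F6 promoter, chr2:11466162-11466241, minus strand: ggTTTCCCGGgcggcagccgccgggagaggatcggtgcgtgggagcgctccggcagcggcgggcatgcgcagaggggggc
E2F4 promoter, chr16:67192075-67192154, plus strand: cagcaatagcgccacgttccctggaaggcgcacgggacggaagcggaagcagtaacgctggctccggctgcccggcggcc

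A RefSeq promoter was matched for 8 of the 10 members, not for E2F5 or E2F8, and the RB1 entry lies inside the annotated gene, so the gene's own start was not searched. Within 250 bases before the start, the element was found in 5 of them: 3 overlapping or neighbouring matches in E2F1 and 2 each in E2F2, E2F3, E2F6 and RBL1. For comparison, 5.23% of the 35116 promoters in the table held at least 1 match in that window. No match was found before the E2F4 or E2F7 start or at the other E2F3 start of the table. A match is a run of letters and says nothing about binding in these cells.

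The members' levels per kilobase of exon spanned more than an order of magnitude. In short-term nontarget cells E2F1 (29.03 ± 2.79 CPM per kb, SD, n = 3) and E2F4 (25.3 ± 1.55) were highest, followed by RB1 (16.5 ± 0.704) and E2F3 (15.3 ± 0.958). RBL1 (8.10 ± 1.27), E2F6 (7.68 ± 0.502), E2F7 (5.87 ± 0.372) and E2F5 (4.65 ± 0.288) were intermediate, and E2F8 (1.80 ± 0.335) and E2F2 (0.764 ± 0.325) were lowest. In this order E2F1 and E2F4, RB1 and E2F3, and RBL1 and E2F6 overlapped with their neighbour between libraries, and the other neighbours were separate. E2F1 had the highest mean level per kb and E2F4 the second highest in all 4 groups. E2F2 was last in all but the long-term nontarget group, where E2F2 (1.66 ± 0.328) and E2F8 (1.64 ± 0.247 CPM per kb) overlapped. After knockdown, E2F8 rather than E2F5 took the eighth place, with overlapping libraries in both cases.

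**Figure D1:**
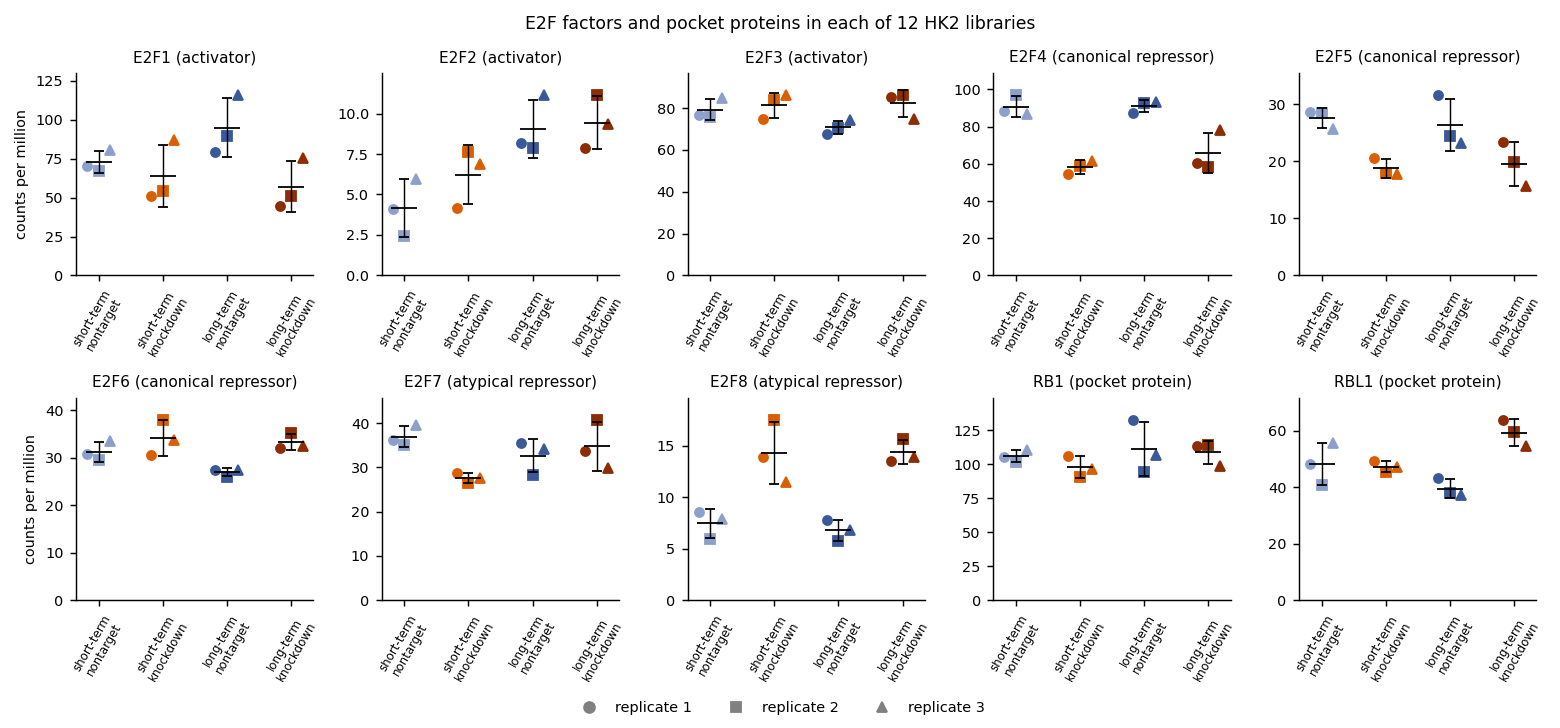
CPM (vertical axes, linear from 0) of the 10 members in each of the 12 libraries, grouped along the horizontal axes, with replicates 1, 2 and 3 as circles, squares and triangles and bars giving mean ± SD. E2F4 sat at 54.3 to 78.0 CPM in the 6 knockdown libraries and at 86.6 to 97.0 CPM in the 6 nontarget libraries, and E2F8 at 11.5 to 17.6 against 5.73 to 8.61 CPM.

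After short-term FLCN knockdown E2F4 and E2F5 were lower and E2F8 was higher, whereas the activators E2F1, E2F2 and E2F3 and the pocket proteins RB1 and RBL1 did not pass the test (quasi-likelihood F test of edgeR, p adjusted by Benjamini-Hochberg over all tested genes and called below 0.05). Thus 3 of 10 members passed, beside 10.3% of all tested genes. Of the members, 1 was higher, where 5.62% of all genes were, and 2 were lower, where 4.71% were. The libraries of the groups did not overlap for 4 members, the called ones and E2F7, beside 30.2% of all genes. The median log2 fold change was −0.07 over the members and 1e-04 over all genes.

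After long-term FLCN knockdown E2F8 and RBL1 were higher and E2F1 and E2F4 were lower. These 4 of 10 members stood beside 29.5% of all tested genes that passed, a much more altered background than at short term. Of the members, 2 were higher (13.7% of all genes) and 2 were lower (15.8%). The groups did not overlap for 6 members, these 4 with E2F3 and E2F6, beside 39.6% of all genes. The median log2 fold change was 0.07 over the members and 0.001 over all genes.

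After long culture of nontarget cells only E2F2 of the 10 members was called, and it was higher, beside 7.55% of all genes called, 3.17% higher and 4.38% lower. Groups did not overlap for E2F2, E2F3 and E2F6, beside 25.7% of all genes. Between short- and long-term FLCN knockdown cells no member passed edgeR's adjusted threshold and DESeq2 also called 0, whereas 26.6% of all genes passed, 11.5% higher and 15.2% lower. At an unadjusted p under 0.05, 3 members were higher in long-term knockdown (E2F2, E2F7 and RBL1), and these are also the 3 whose groups did not overlap, beside 38.1% of all genes. With the replicate number as a block, E2F2 (log2 fold change 0.60, edgeR adjusted p = 0.0429) and RBL1 (0.33, 0.0213) passed, beside 34.4% of all genes. This pairing of libraries was taken from the data, is not given by the labels and is uncertain. The effect of knockdown differed between long and short culture for RBL1 alone, beside 13.4% of all genes, 4.98% with a higher and 8.43% with a lower long-term effect. The comparisons share libraries, so their values are given side by side.

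**Figure D2:**
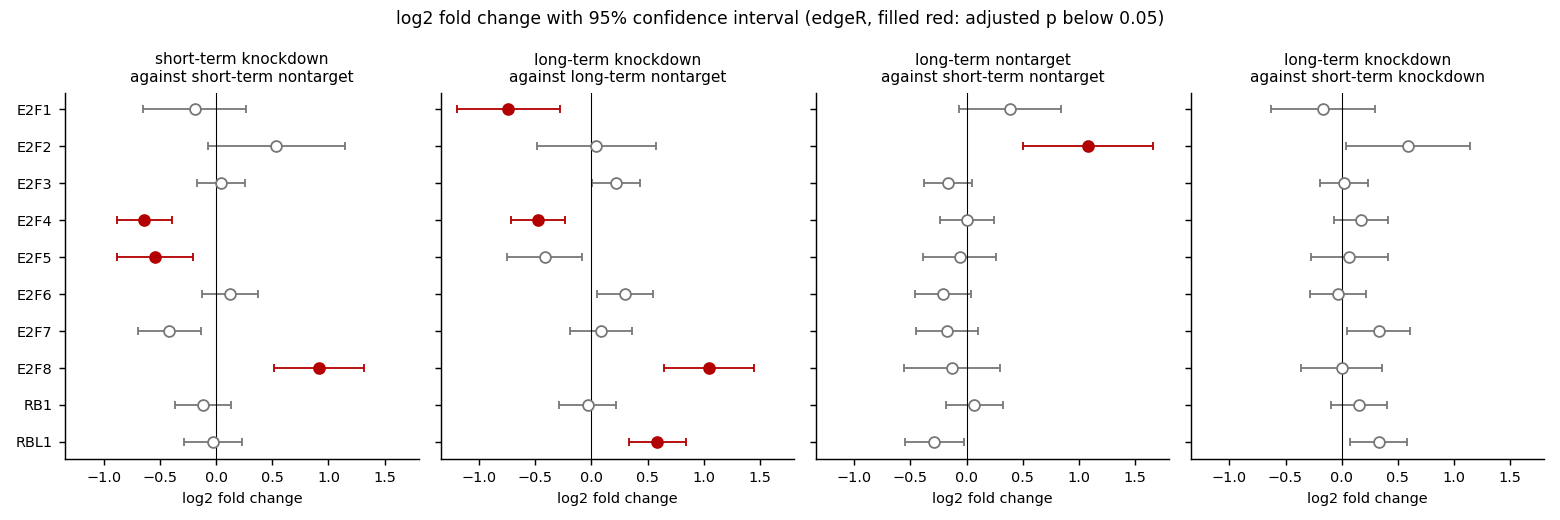
Log2 fold change (horizontal axes) with 95% confidence interval from the edgeR fit for each member in 4 comparisons, filled red where the adjusted p was below 0.05. E2F4 and E2F8 are red in both knockdown panels, E2F5 in the short-term panel only, E2F1 and RBL1 in the long-term panel only, and E2F2 in the panel of long against short culture of nontarget cells.

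E2F1 (chr20:33675683-33686404, minus strand, GRCh38) is the activator most closely tied to S phase entry and to apoptosis. It was at 70.5, 67.0 and 80.4 CPM in replicates 1 to 3 of short-term nontarget cells and at 50.7, 54.3 and 86.9 CPM after short-term knockdown. In long-term nontarget cells it was at 79.2, 89.4 and 116 CPM, and after long-term knockdown at 44.4, 51.2 and 75.5 CPM. Replicate 3 was the highest library in all 4 groups, and the groups overlapped at short term but not at long term. Its log2 fold change after long-term knockdown was −0.74 (SE 0.21, edgeR adjusted p = 0.0164), a level 40.1% lower. With time E2F1 changed by 0.384 in nontarget cells (edgeR adjusted p = 0.359) and by −0.165 in knockdown cells (0.629), and neither passed.

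The fall of E2F1 missed the threshold without long-term knockdown replicate 1 (edgeR adjusted p = 0.0762), without long-term knockdown replicate 2 (0.0622) and without long-term nontarget replicate 3 (0.0766). E2F1 has 62.5% GC, more than 92% of tested genes, and its deviations from the group mean ran with the GC shift of the libraries. In the GC-shifted replicate 3 libraries it lay 0.48, 0.31 and 0.44 log2 units above the group mean. With the GC offset the long-term change was −0.64 (SE 0.11, edgeR adjusted p = 3.66e-05). At short term E2F1 changed by −0.19 (SE 0.22, edgeR adjusted p = 0.666), but by −0.34 (edgeR adjusted p = 0.0294) with the GC offset and by −0.39 (0.0166) without the 4 libraries numbered 3. Leaving out short-term knockdown replicate 3 alone did not give the short-term call (edgeR adjusted p = 0.155). Thus the short-term call for E2F1 depended on the fit, and the long-term direction did not. The difference between its long- and short-term effects was −0.55 (95% CI −1.20 to 0.10).

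**Figure D3:**
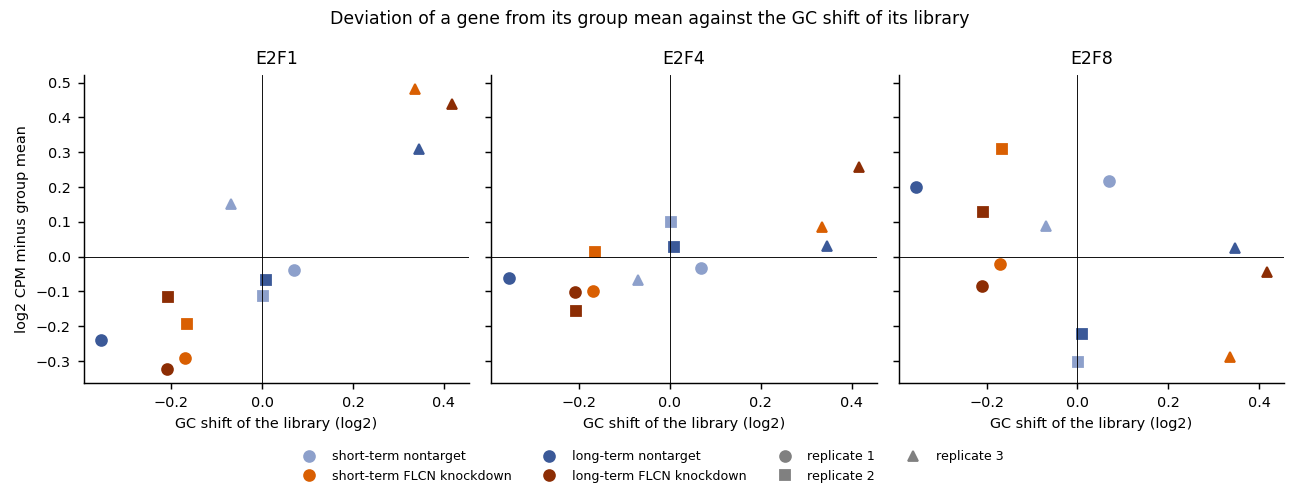
Deviation of E2F1, E2F4 and E2F8 from their group mean (vertical axes, log2 CPM) against the GC shift of the library (horizontal axes, log2, 3485 GC-rich minus 3485 GC-poor genes), one point per library with colours for groups and symbols for replicates. For E2F1 the 3 GC-shifted replicate 3 libraries lie at 0.31 to 0.48, and for E2F8 they lie at −0.29 to 0.03.

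E2F2 (chr1:23506430-23531220, minus strand) had the fewest reads, 16 to 86 counts per library. It was at 4.10, 2.43 and 5.97 CPM in short-term nontarget cells and at 8.18, 7.90 and 11.1 CPM in long-term nontarget cells. All long-term libraries were above all short-term ones. The log2 fold change between them was 1.08 (SE 0.28, edgeR adjusted p = 0.0207). Leaving out replicate 1 or 2 of the short-term nontarget group, or replicate 3 of the long-term one, ended this call (edgeR adjusted p = 0.0849, 0.12 and 0.0984). After knockdown E2F2 was at 4.18, 7.60 and 6.90 CPM at short term and at 7.86, 11.2 and 9.33 CPM at long term. The knockdown comparisons gave 0.54 (95% CI −0.07 to 1.15) at short term and 0.05 (−0.49 to 0.58) at long term, intervals that leave room for a 1.45-fold rise or more in both.

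E2F3 (chr6:20401906-20493715, plus strand), the activator with the steadiest level, ranged from 67.7 to 86.3 CPM over all 12 libraries. It was at 67.7, 70.3 and 74.1 CPM in long-term nontarget cells and at 85.5, 86.3 and 74.96 CPM after long-term knockdown. The groups just failed to overlap, with a log2 fold change of 0.22 (SE 0.10, edgeR adjusted p = 0.119). It passed with the GC offset (0.26, edgeR adjusted p = 0.0261) and without the 4 libraries numbered 3 (0.32, 0.0125). At short term its log2 fold change was 0.04 (95% CI −0.17 to 0.25). The processed pseudogenes E2F3P1 and E2F3P2 may share reads with it.

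E2F4 (chr16:67192169-67198918, plus strand) is the most abundant repressor E2F and the main E2F of quiescent cells. It was at 88.6, 97.0 and 86.6 CPM in short-term nontarget cells and at 54.3, 58.8 and 61.8 CPM after short-term knockdown. It was at 87.2, 92.8 and 93.0 CPM in long-term nontarget cells and at 60.7, 58.4 and 78.0 CPM after long-term knockdown. Every knockdown library was below every nontarget library. The log2 fold change was −0.64 (SE 0.12, edgeR adjusted p = 0.00142) at short term, 35.7% lower, and −0.47 (SE 0.11, edgeR adjusted p = 0.00424) at long term, 27.9% lower.

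E2F4 passed in each fit that left out 1 library. The nontarget groups differed by 0.00 (95% CI −0.23 to 0.24), so the level of E2F4 was not altered detectably by long culture alone. Its difference between long- and short-term effects was 0.17 (95% CI −0.17 to 0.51), which passed only where the GC offset was used (0.34, edgeR adjusted p = 0.0451). E2F4 has 59.3% GC, and long-term knockdown replicate 3, its highest knockdown library, was among the GC-shifted ones. The pseudogene E2F4P1 may share reads with E2F4.

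E2F5 (chr8:85177225-85217158, plus strand), the second E2F that works through pocket proteins, was at 28.7, 28.4 and 25.6 CPM in short-term nontarget cells. It was at 20.6, 17.98 and 17.7 CPM after short-term knockdown, below all control libraries. The log2 fold change was −0.54 (SE 0.16, edgeR adjusted p = 0.0362), and it missed the threshold in each of the 6 fits that left out 1 of these libraries (edgeR adjusted p = 0.055 to 0.123). At long term E2F5 was at 31.6, 24.5 and 23.2 CPM in nontarget and at 23.3, 19.8 and 15.6 CPM in knockdown cells, and the groups overlapped. The long-term change was −0.42 (SE 0.16, edgeR adjusted p = 0.056), and passed with the replicate block (−0.42, edgeR adjusted p = 0.01). Exons of E2F5 overlap those of C8orf59 and AC011773.1 on the opposite strand, and the library kit does not mark strand, so reads there cannot be told apart.

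E2F6 (chr2:11444375-11466177, minus strand), which represses germline and meiotic genes in somatic cells, was at 27.5, 26.0 and 27.4 CPM in long-term nontarget cells. It was at 32.1, 35.2 and 32.6 CPM after long-term knockdown, above all control libraries. Its log2 fold change was 0.30 (SE 0.12, edgeR adjusted p = 0.0653), and passed with the replicate block (0.30, edgeR adjusted p = 0.0434) and with the GC offset (0.34, 0.015). At short term it was at 29.5 to 33.5 CPM in nontarget and 30.5 to 38.0 CPM in knockdown cells, a change of 0.13 (95% CI −0.12 to 0.37). The 40 tested genes nearest to E2F6 had a median log2 fold change of 0.37 at short term and 0.30 at long term, and the 932 tested genes of chromosome 2 had 0.30 and 0.18. Their part in the E2F6 values was not tested. E2F6 has 4 named pseudogenes, E2F6P1 to E2F6P4, that may share reads.

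E2F7 (chr12:77021247-77065580, minus strand) and E2F8 are atypical repressors that are themselves E2F targets and restrain E2F1 late in S phase. E2F7 was at 36.2, 35.1 and 39.6 CPM in short-term nontarget cells and at 28.7, 26.5 and 27.6 CPM after short-term knockdown. The groups did not overlap, but the change of −0.42 (SE 0.13) missed the threshold (edgeR adjusted p = 0.0557). It passed when the fit held only these 2 groups (−0.41, edgeR adjusted p = 0.033) and with the GC offset (−0.38, 0.0199). At long term E2F7 was at 35.5, 28.3 and 34.2 CPM in nontarget and 33.6, 40.8 and 29.9 CPM in knockdown cells, a change of 0.09 (95% CI −0.19 to 0.37). The difference between these effects was 0.50 (SE 0.19, edgeR adjusted p = 0.0866), and passed with the GC offset (0.50, edgeR adjusted p = 0.023).

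E2F8 (chr11:19224063-19241620, minus strand) had the largest positive knockdown effects of the members. It was at 8.61, 5.92 and 7.86 CPM in short-term nontarget cells (39 to 63 counts) and at 13.9, 17.6 and 11.5 CPM after short-term knockdown (65 to 120 counts). It was at 7.77, 5.73 and 6.86 CPM in long-term nontarget cells and at 13.5, 15.7 and 13.9 CPM after long-term knockdown. The lowest knockdown library was above the highest of the 6 nontarget ones. The log2 fold change was 0.92 (SE 0.19, edgeR adjusted p = 0.00422) at short term, 1.89-fold, and 1.04 (SE 0.19, edgeR adjusted p = 4.28e-04) at long term, 2.06-fold.

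E2F8 passed in every fit that left out 1 library. The effects differed by 0.13 (95% CI −0.44 to 0.69) between long and short culture, and neither nontarget cells (−0.13, 95% CI −0.56 to 0.30) nor knockdown cells (0.00, −0.36 to 0.36) changed detectably with time. An exon of AC009652.2 overlaps E2F8 on the opposite strand.

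RB1, the retinoblastoma protein gene, ranged from 90.5 to 133 CPM over all libraries. It changed by −0.12 (95% CI −0.37 to 0.14) after short-term and by −0.03 (−0.28 to 0.22) after long-term knockdown, and these intervals exclude a change of 1.5-fold in either direction. Its libraries overlapped in all 4 comparisons. RB1 was thus the pocket protein with no detectable change at the RNA level.

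RBL1 (chr20:36996349-37095995, minus strand), a pocket protein that is itself an E2F target, was at 43.3, 38.1 and 37.1 CPM in long-term nontarget cells and at 64.0, 59.7 and 54.6 CPM after long-term knockdown. The groups were well apart, and the change was 0.59 (SE 0.12, edgeR adjusted p = 0.00133), a level 50.3% higher. At short term it was at 48.3, 40.7 and 55.8 CPM in nontarget and at 49.4, 45.3 and 47.3 CPM in knockdown cells, a change of −0.03 (95% CI −0.28 to 0.23). The long-term effect exceeded the short-term one by 0.62 (SE 0.17, edgeR adjusted p = 0.0237).

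This difference for RBL1 was composed of a level that was lower with time in nontarget cells (−0.29, edgeR adjusted p = 0.199) and higher with time in knockdown cells (0.33, edgeR adjusted p = 0.0536), neither of which passed. The rise of RBL1 in knockdown cells passed with the replicate block (0.33, edgeR adjusted p = 0.0213), a pairing taken from the data. It also passed with the GC offset (0.35, edgeR adjusted p = 0.00741) and without the 4 libraries numbered 3 (0.38, 0.012). The RBL1 call at long term held in every fit that left out 1 library, whereas the difference missed the threshold in 6 of 12 such fits (edgeR adjusted p up to 0.0746, without long-term knockdown replicate 1), the others being short-term nontarget replicates 1 and 3, short-term knockdown replicate 2 and long-term nontarget replicates 2 and 3. Its exons overlap AL136172.1 on the opposite strand.

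Activators were then set against repressors as the log2 ratio of the summed CPM per kb of E2F1 to E2F3 over that of E2F4 to E2F8, as a description with no test. In short-term nontarget cells the ratio was −0.04, −0.14 and 0.15 in replicates 1 to 3, and after short-term knockdown 0.06, 0.08 and 0.56. In long-term nontarget cells it was 0.07, 0.26 and 0.52, and after long-term knockdown −0.07, 0.02 and 0.20. The group means were −0.01 ± 0.14, 0.23 ± 0.28, 0.29 ± 0.22 and 0.05 ± 0.13 (SD, n = 3), with overlapping libraries in both knockdown comparisons. At long term, where the numbers were taken as pairs from the data, the ratio was lower after knockdown in all 3 same-numbered pairs. At short term the numbers were not taken as pairs. In each group the ratio was highest in replicate 3, as was E2F1, which is the largest activator.

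Split by the kind of repressor, the balance looked different. Activators over canonical repressors (E2F4 to E2F6) went from 0.26 ± 0.17 to 0.59 ± 0.25 after short-term knockdown, and the libraries did not overlap (up to 0.436 against 0.442 and above). They went from 0.53 ± 0.22 to 0.43 ± 0.11 at long term, with overlap. Activators over atypical repressors (E2F7 and E2F8) went from 2.56 ± 0.06 to 2.42 ± 0.40 at short term, with overlap, and from 2.96 ± 0.29 to 2.17 ± 0.31 at long term, without (2.62 to 3.15 against 1.93 to 2.52). The summed level of the canonical repressors was 37.7 ± 1.29 CPM per kb in short-term nontarget and 27.8 ± 1.47 in short-term knockdown cells, and 36.5 ± 0.109 and 29.8 ± 2.25 at long term (SD, n = 3), without overlap in either comparison. That of the activators was 45.1 ± 4.05 and 42.5 ± 9.002 CPM per kb at short term and 53.2 ± 8.51 and 40.4 ± 5.43 at long term, with overlap in both (46.3 to 62.7 against 35.7 to 46.4 at long term).

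**Figure D4:**
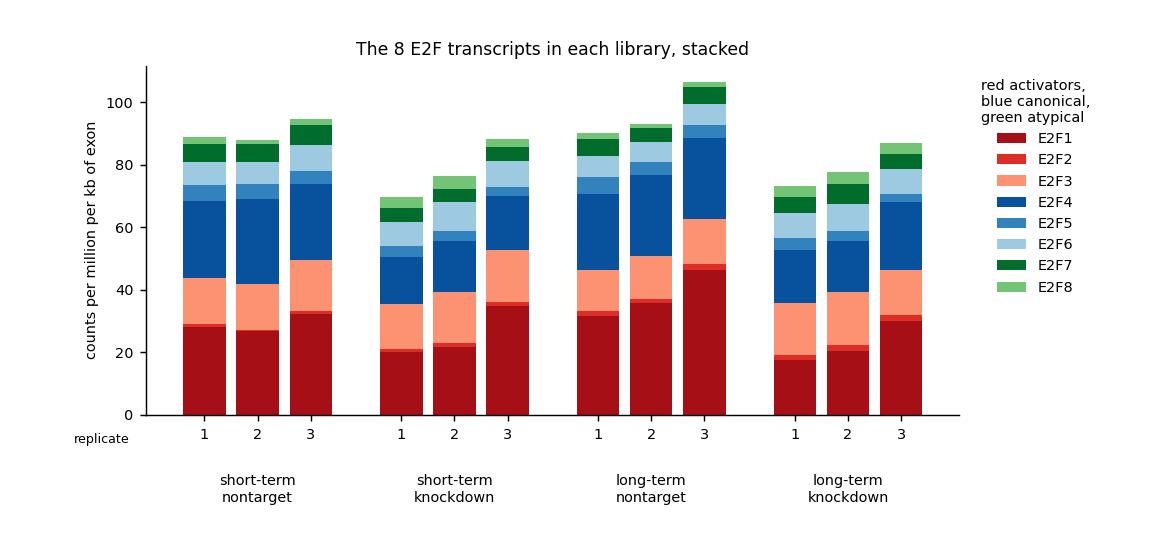
Stacked bars of the 8 E2F transcripts (vertical axis, CPM per kb of exon, from 0) in each of the 12 libraries, with activators in reds, canonical repressors in blues and atypical repressors in greens. The totals ran from 69.5 to 88.3 after short-term and from 73.1 to 86.9 after long-term knockdown, against 88.0 to 94.6 and 90.2 to 106 in the nontarget groups, and the E2F1 block is tallest in replicate 3 of each group.

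As a share of the summed CPM per kb of the 8 E2F genes, E2F8 was 1.99% ± 0.359 in short-term nontarget and 4.51% ± 1.23 in short-term knockdown cells, and 1.71% ± 0.325 and 4.40% ± 0.508 at long term (SD, n = 3). The share of E2F4 was 28.1% ± 2.62 and 20.9% ± 1.22 at short term, and 26.4% ± 1.79 and 23.1% ± 2.06 at long term. E2F1 took 32.1% ± 1.81 and 32.3% ± 6.11 at short term, but 39.0% ± 4.26 and 28.4% ± 5.53 at long term. E2F2 never exceeded 2.63% of the sum. In bulk RNA, fewer cells that express a gene and less RNA of it per cell cannot be told apart, and the share of cells in S phase, when several of these genes are transcribed, was not measured in these libraries. By flow cytometry of nontarget and knockdown HK2 cells, the study reports small, significant changes in the G1 and G2/M populations.

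The genes around the members were counted whole, by lists. Of the E2F partners, TFDP1, TFDP2 and the remaining pocket protein RBL2, none of 3 passed in either knockdown comparison, beside 10.3% of all genes at short and 29.5% at long term, while TFDP2 (log2 fold change 0.44, edgeR adjusted p = 0.00577) and RBL2 (0.47, 0.00453) were higher in long-term than in short-term knockdown cells (11.5% of all genes). For the lists that follow, the background was 5.62% of all genes higher and 4.71% lower at short term, and 13.7% higher and 15.8% lower at long term. Of 5 tested genes of the MuvB and DREAM list, RBBP4 was lower in both knockdowns (−0.33, edgeR adjusted p = 0.039 and −0.41, 0.00437), and MYBL2 was higher at short term (0.53, 0.0247). Of 7 genes of the E2F6 complex, L3MBTL2 was lower at short term (−0.44, edgeR adjusted p = 0.0354) but 0 passed at long term. The median log2 fold change of this complex was −0.08 and −0.02 in these comparisons. The short-term calls of RBBP4, MYBL2 and L3MBTL2 were lost in fits that left out 1 library, with edgeR adjusted p up to 0.124, 0.109 (both without replicate 3 of the short-term knockdown) and 0.176 (without replicate 1 of the short-term nontarget group).

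Upstream of the pocket proteins, 1 of 8 tested G1/S cyclins and kinases was higher and 0 lower at short term, and 1 was higher and 3 lower at long term, beside 5.62% and 4.71% of all genes at short term and 13.7% and 15.8% at long term. CCND1, the D-type cyclin that starts RB1 phosphorylation, was at 112 to 124 CPM in short-term nontarget and 171 to 197 CPM in short-term knockdown cells (0.61, edgeR adjusted p = 6.18e-04). It was at 134 to 161 CPM in long-term nontarget but at 3.24 to 3.67 CPM in long-term knockdown cells (−5.28, edgeR adjusted p = 4.79e-14). CCND3 (−1.13, edgeR adjusted p = 3.57e-05) and CCNE1 (−0.53, 0.00679) were also lower at long term, and CDK6 was higher (0.76, 1.22e-04). Of 7 CDK inhibitors, CDKN1C (1.59, edgeR adjusted p = 0.0286) and CDKN2C (0.50, 0.0419) were higher at short term. At long term 3 inhibitors were higher and 3 lower, the largest changes being CDKN1C (−2.17, edgeR adjusted p = 0.00226), CDKN1A (−1.55, 9.8e-06), CDKN2C (1.37, 1.77e-06) and CDKN2D (−0.70, 0.00309). The short-term calls of CDKN1C and CDKN2C were lost when 1 library was left out (edgeR adjusted p up to 0.102 without replicate 1 and 0.146 without replicate 3 of the short-term nontarget group), and that of CDKN1C also without a filter (0.14) and with only the groups compared (0.119). Without replicate 3 of the short-term knockdown the CDKN1C change was 0.98, still past the threshold. One of the 3 inhibitors higher at long term was CDKN2B, whose call was lost in 3 of 6 fits that left out 1 library (edgeR adjusted p up to 0.081, without replicate 2 of the long-term nontarget group).

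Downstream, 22 E2F target genes of S phase were tested. At short term 0 were higher and 1 was lower, the chromatin factor UHRF1 (−0.51, edgeR adjusted p = 0.0212), beside 5.62% of all genes higher and 4.71% lower, and the median log2 fold change was 0.002. At long term 3 were higher and 1 lower, beside 13.7% and 15.8% of all genes, with a median of 0.12: RPA1, a single-strand DNA binding subunit, rose by 0.79 (edgeR adjusted p = 2.24e-06), TK1, thymidine kinase, by 0.43 (0.0253) and POLA1, the primase-polymerase subunit, by 0.40 (0.0116), and UHRF1 fell by 0.70 (7.51e-04). Between long- and short-term knockdown cells 7 of the 22 were higher and 0 lower, beside a background of 11.5% and 15.2%, and the median was 0.16. In this comparison RPA1 (0.69), TK1 (0.66), PCNA (0.44) and CDC45 (0.41) were the largest changes. MCM7, ORC1 and POLA1 missed the threshold without long-term knockdown replicate 1 (edgeR adjusted p = 0.0819, 0.097 and 0.102) and without long-term knockdown replicate 2 (0.0734, 0.0525 and 0.0784), which left 4 of the 22 called in each of these fits, and with the GC offset 15 were called, beside 23.6% of all genes higher in that fit. In nontarget cells, TK1 (0.58) and MCM7 (0.33) were higher with time and none was lower, beside 3.17% and 4.38% of all genes. Of 12 G2/M genes, CDC20 was higher at short term (0.45, edgeR adjusted p = 0.0307) and CCNB2 (0.48, 0.00244) and BIRC5 (0.28, 0.0228) at long term, and 0 were lower. UHRF1 and RBBP4 were lower in both knockdowns, as was E2F4. Several of these calls were lost when 1 library was left out: at short term UHRF1 and CDC20 (edgeR adjusted p up to 0.106 and 0.134), at long term TK1, POLA1 and BIRC5 (0.131, 0.069 and 0.102), and in nontarget cells TK1 and MCM7 (0.0823 and 0.0971). RPA1 passed in every fit.

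**Figure D5:**
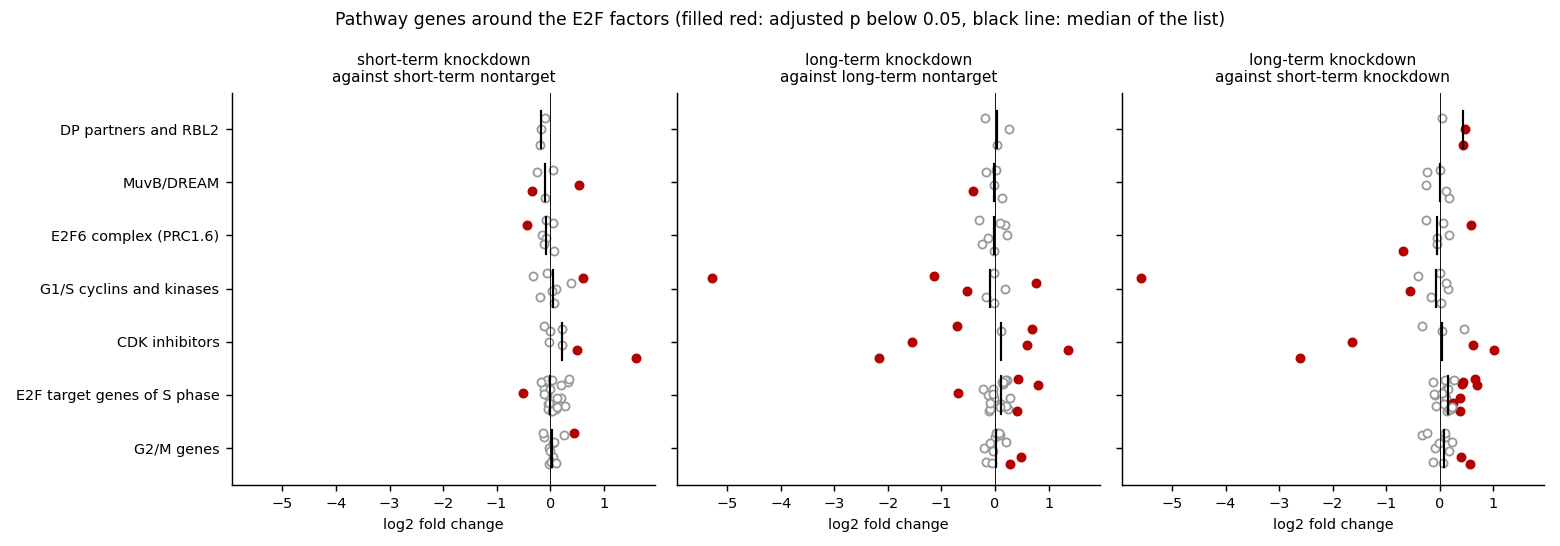
Log2 fold change (horizontal axes) of the tested genes of 7 pathway lists (rows, points spread vertically only for visibility) in 3 comparisons, filled red where the edgeR adjusted p was below 0.05, with the list median as a black line. The point at −5.28 in the middle panel and −5.58 in the right panel is CCND1, and 7 S-phase targets are red on the right of zero in the last panel.

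The genes whose log2 CPM followed a member most closely over the 12 libraries were sought among 9368 tested genes that averaged 10 CPM or more, as a description. For E2F1 they were ZC3H7B (Pearson's r = 0.978), PTPRF (0.974) and STIM1 (0.965). For E2F4 they were CYB5R3 (0.956), FAM168A (0.944) and JOSD1 (0.943), and for E2F8 they were HJURP (0.968), SELENBP1 (0.961) and R3HDM1 (0.953). The libraries share group, depth and GC shift, so these values carry no test.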

How the data were processed

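The authors trimmed reads with fastp, mapped them with STAR (2-pass) to GRCh38 and counted them per gene with featureCounts, per the labels and the methods. Versions, annotation release and strand setting are not given in the sources used here. The deposited values are raw counts. The second set of columns deposited by the authors, scaled values rounded to whole numbers (unit: score), and the authors' fold changes and p-values were not used.

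Of 58288 IDs, 308 had no GENCODE 29 symbol and 2361, RB1 among them, matched with another version. Genes were filtered with filterByExpr, scaled by TMM and tested in 1 model of all 12 libraries (R 4.3.3, edgeR 4.0.16, glmQLFit robust, prior count 2, no fold limit). Levels are CPM, per kb of summed exons where genes are compared. Replicates differed beyond counting noise (chi-square per degree of freedom 2.07 to 11.9), and the intervals given come from the fit and cover the spread between libraries.

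Members, lists and the rule for named genes (every member, and at most 4 called genes with the largest change per list and comparison) were chosen with earlier results of these data known. Beyond this rule, CDKN2B at long term and MCM7, ORC1 and POLA1 over time in knockdown cells were named where their calls were lost. As for the replicate numbers, deviations of same-numbered libraries correlated above 0.1 in all 3 pairs between long-term nontarget and long-term knockdown (0.28, 0.12 and 0.46) and between short- and long-term knockdown (0.22, 0.29 and 0.46), and not in all pairs with short-term nontarget cells. The numbers were therefore taken as pairing the libraries in these 2 comparisons, from the data and not from the labels. Some differently numbered libraries also correlated above 0.1. These were long-term nontarget 1 with long-term knockdown 2 (0.23), and short-term with long-term knockdown, 1 with 2 (0.13) and 2 with 1 (0.12). The others in these comparisons were at −0.397 to −0.0125. The values of 0.46 are between replicate 3 libraries that share the GC shift. The pairing is thus uncertain, and calls that passed only with the block rest on it. Alternatives were relative log expression (RLE) factors, DESeq2 1.42.0, no filter, a mean of at least 10 CPM, only the groups compared, the replicate block, and leaving out each library.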

Additional observations from a re-analysis of the deposited data

Results flagged for a closer look

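RBL1 and 7 pathway genes differed between long and short culture by the interaction test of the edgeR fit, with values as log2 differences of the long-term minus the short-term knockdown effect. RBL1, 1 of 10 members, and 7 of 64 tested pathway genes stood beside 13.4% of all genes that passed this test. RBL1 was at 0.62 (edgeR adjusted p = 0.0237), and its call was lost in 6 of the 12 fits that left out 1 library (edgeR adjusted p up to 0.0746). The pathway genes were the cyclin genes CCND1 at −5.89 (4.2e-13) and CCND3 at −0.81 (0.0196), the inhibitor genes CDKN1C at −3.77 (9.86e-04, and −3.16 without replicate 3 of the short-term knockdown), CDKN1A at −1.53 (5.94e-04) and CDKN2C at 0.86 (0.0098), L3MBTL2 at 0.62 (0.0255) and RPA1 at 0.59 (0.00311). For CCND1 and CDKN1C the sign of the knockdown effect was opposite at short and long term, with both effects past the threshold, but the short-term call of CDKN1C was lost without a filter (edgeR adjusted p = 0.14), with only the groups compared (0.119) and without replicate 1 or 2 of the short-term nontarget group (0.102 and 0.0956). The interaction call of L3MBTL2 was lost without a filter (edgeR adjusted p = 0.0516). The calls of L3MBTL2 and CCND3 were lost in 5 and 3 of these 12 fits (edgeR adjusted p up to 0.0854 without replicate 1 of the short-term nontarget group and 0.0532 without replicate 1 of the long-term knockdown group).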

How the results depend on the processing

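RLE factors, DESeq2 and, for the 4 comparisons of groups, a fit of only the groups compared changed none of the members called except that E2F7 was added to the 3 called after short-term knockdown in the last of these. E2F4 and E2F8 in both knockdown comparisons and RBL1 at long term passed in every alternative. No named gene past the threshold changed sign, and 42 of 1667 recomputed values changed sign below it. With the replicate block, members called went from 3 to 4 (E2F7 lower added) at short term, 4 to 6 at long term, 1 to 2 (E2F1 higher added) with time in nontarget cells, 0 to 2 with time in knockdown cells and 1 to 2 (E2F1 lower added) for the interaction; all genes called went from 1441 to 2359, 4119 to 5137, 1054 to 1786, 3719 to 4805 and 1872 to 2879 in the same order (16.9%, 36.8%, 12.8%, 34.4% and 20.6% of those tested with the block). The numbers were taken as pairing the libraries for the long-term and the knockdown-over-time comparison only, so the other block values rest on a shared number.

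Without a filter, 1 member (E2F2) was called over time in knockdown cells and 2 for the interaction (E2F1 added). Without a filter, calls were also lost for RBBP4, L3MBTL2 and CDKN1C at short term (edgeR adjusted p = 0.0547, 0.0726 and 0.14), BIRC5 at long term (0.0713), MCM7 and ORC1 over time in knockdown cells (0.0969 and 0.0587) and L3MBTL2 for the interaction (0.0516). With only the groups compared they were lost for L3MBTL2 (0.0541), CDKN1C (0.119), BIRC5 (0.0678), MCM7 (0.0964) and ORC1 (0.0657) in the same comparisons of groups. With a mean of at least 10 CPM, E2F2 was not tested, members called over time in nontarget cells were 0 and all genes 666. With the GC offset, added after seeing the data, 5, 7, 1, 4 and 3 members were called for short-term knockdown, long-term knockdown, nontarget over time, knockdown over time and interaction, and all genes called were 2388, 5590, 1947, 5562 and 3254 (17.1%, 40.1%, 14%, 39.9% and 23.3%). With GC offset and replicate block together they were 5, 7, 2, 4 and 4 members, and 3255, 6405, 2773, 6348 and 4178 genes (23.4%, 46%, 19.9%, 45.5% and 30.0%). Without the 4 libraries numbered 3, also added, 2 members were called over time in knockdown cells and 2 for the interaction, beside 31.4% and 16.6% of all genes, and 1586 genes over time in nontarget cells. The cause of these changes was not tested.

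Leaving out 1 library gave 2 members called in each short-term fit, 3 to 4 at long term, 0 to 1 over time in nontarget cells, 0 to 2 over time in knockdown cells and 0 to 2 for the interaction. All genes called ranged from 874 to 1258 at short term (874 without short-term nontarget replicate 1, 906 without replicate 2), 581 to 906 over time in nontarget cells (581 and 645 without these 2 libraries), 3295 to 4190 at long term, 2829 to 3870 over time in knockdown cells and 1463 to 2291 for the interaction. Of 56 results of named genes other than members (FLCN included), 36 passed in every alternative in which they were tested and 20 missed the threshold in at least 1 fit that left out a library, among them MYBL2, RBBP4, CDKN1C, CDKN2C, UHRF1 and CDC20 at short term.

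The ratio of activators to repressors was −0.01 and 0.23 at short term and 0.29 and 0.05 at long term, nontarget cells first. With canonical repressors only it was 0.26, 0.59, 0.53 and 0.43, and with atypical repressors only 2.56, 2.42, 2.96 and 2.17. As a mean difference in log2 CPM it was 0.54 and 0.27 in the last pair of groups. Depth limits E2F2 most, with 16 counts in its shallowest library.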

Other observations

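E2F8 and E2F1 were compared in the same library, a ratio chosen after its values were seen and given without a test. The log2 ratio of their CPM per kb was −4.02 ± 0.24 in short-term nontarget and −2.86 ± 0.69 in short-term knockdown cells, and −4.52 ± 0.39 and −2.68 ± 0.42 at long term (SD, n = 3). Libraries did not overlap in either case. Around the other 9 members, the 40 nearest tested genes had median log2 fold changes between −0.15 and 0.12 in all 5 comparisons. The corresponding medians around E2F6 were 0.37 and 0.30 in the knockdown comparisons.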
